A study of Homo sapiens with 6 samples.

Results

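Homologous recombination and Fanconi genes were followed in DMS114, a human cell line from a small cell lung cancer, kept for 48 h in β-alanine at 2.5 mM. The 40 genes were taken by symbol from a list of recombination, Fanconi and checkpoint genes, out of 36458 symbols in the table of raw counts. All 40 had a row, and all 40 passed the filter on low counts that left 17331 genes for testing. Controls were DMS114 cells given vehicle, and no allele or other agent separated the groups. Each group had 3 libraries of polyadenylated RNA. Everything comes from 1 cell line, and no label states whether the replicates were grown as separate cultures, so that the p-values rest on a spread that may be technical.

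Homologous recombination repairs a broken chromosome by copying an intact sister. Broken ends are trimmed to single strands, and with the help of BRCA1, PALB2 and BRCA2 the strand is then coated with protein and matched to the intact sequence. The Fanconi proteins act where the strands of the helix are crosslinked: a core complex marks FANCD2 and FANCI with ubiquitin, and recombination follows. Many of these genes are transcribed mostly in S phase and G2, when a sister chromatid is present. Small cell lung cancer is known for fast proliferation, replication stress and an initial response to platinum drugs, which crosslink DNA.

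The libraries held 14433801 to 32909568 counts, the smallest being β-alanine library 1. That library also lay nearer to the controls than the other two did, at -9.14 on the first principal component of log2 CPM (the count relative to the scaled library total), against -23.5 and -23.6 for β-alanine libraries 2 and 3 and 16.7 to 20.02 for the controls. No pair of libraries was alike within counting noise, so none was counted as a repeat deposit of another. Chi-square per gene was 4.27 and 4.95 between β-alanine library 1 and the others of its group and 4.69 to 5.59 between it and the controls, while it was 2.26 between β-alanine libraries 2 and 3 and 1.97 to 3.03 among controls. Of the markers of the labelled cell type, SYP, ENO2, CHGA, CHGB and UCHL1 were present at 17.5 to 101 CPM, whereas INSM1, POU2F3, DDC and GRP were each under 1 CPM in every library. The leukocyte and endothelial markers PTPRC, CD68, PECAM1 and VWF were at or near 0, with at most 0.136 CPM. The matrix genes COL3A1, DCN and LUM were at 52.0 to 896 CPM, and the summed level of all 9 stromal, immune and endothelial markers in the table was 880 to 980 CPM after β-alanine against 1115 to 1158 CPM in controls. Their part in the results was not tested.

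After β-alanine, 12 of the 40 genes fell and 3 rose. The falls were of RAD52, FANCA, BRIP1, FANCE, ATRIP, RAD54L, EME1, BLM, FANCD2, BRCA1, FANCI and FANCG, and the rises of MUS81, NBN and RAD51D. RAD52 stood lowest, with a change of -34.0% from control, and the other falls lay between -12.4% and -20.6%. The rises were of 13.6% to 15.0%. For comparison, a call in either direction was made for 27.9% of all genes tested, with 13.8% falling and 14.1% rising, by the quasi-likelihood test of edgeR at a Benjamini-Hochberg adjusted p under 0.05. The 40 genes had 37.5% called, 30.0% falling and 7.5% rising. Their median log2 fold change was -0.08, against -0.003 over all genes tested. In bulk RNA, fewer cells in a state that expresses a gene and less RNA per cell cannot be told apart.

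All 3 β-alanine libraries lay below all 3 controls for 11 genes and above them for 6, where 19.2% and 19.9% of all genes tested did so. The other 23 genes had overlapping groups, among them 4 of the 12 called lower. Those 4 were FANCE, ATRIP, RAD54L and BLM, and in each the overlap came from β-alanine library 1.

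**Figure D1:**
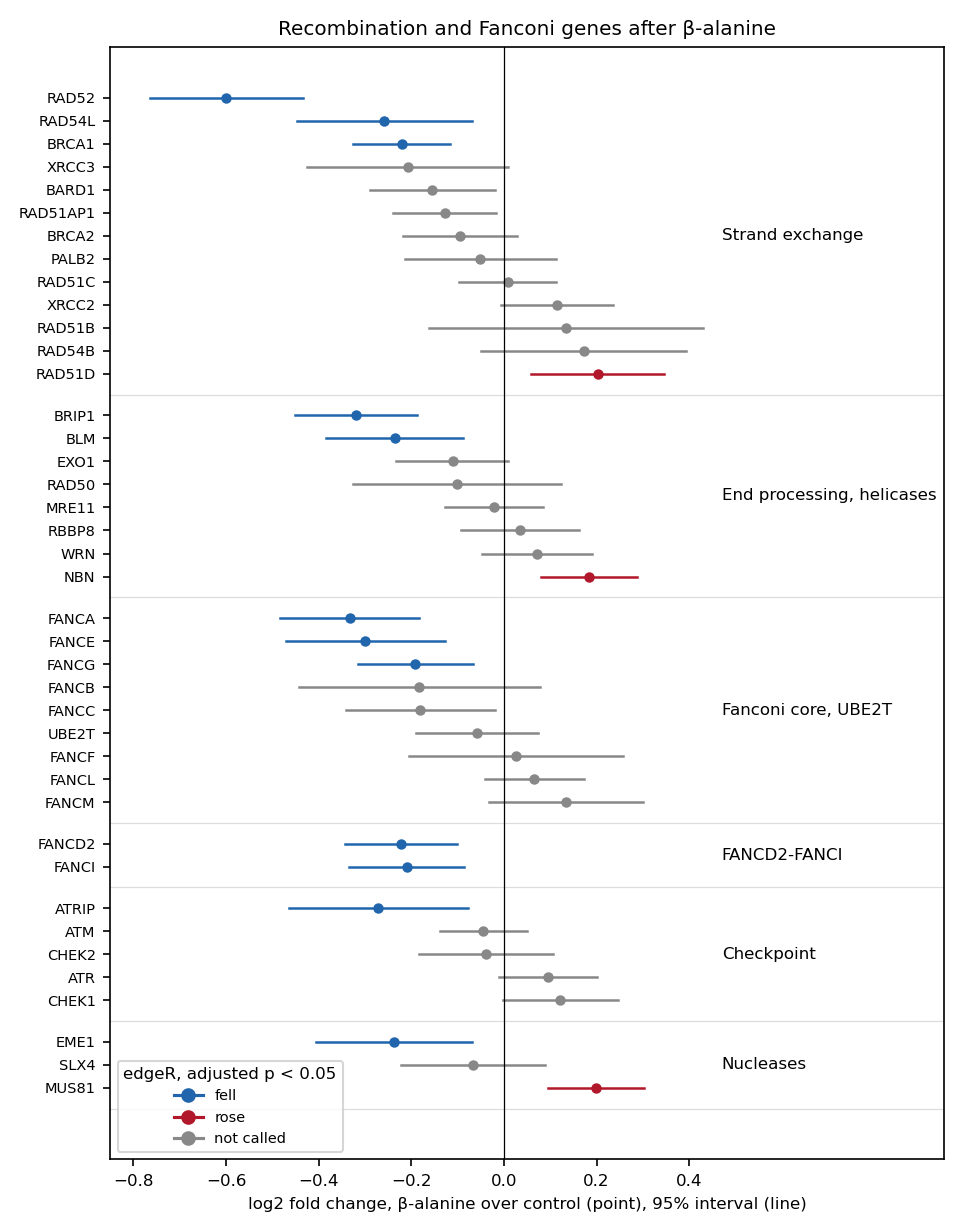
Log2 fold change of β-alanine over control for each of the 40 genes, grouped by role on the vertical axis, with the edgeR estimate as a point and its 95% interval as a line. Blue genes fell, red genes rose and grey genes were not called at an adjusted p under 0.05. RAD52 at -0.60 stands below every other gene. FANCD2 and FANCI are the only role group with every member called, but the group holds only 2 genes. Of all genes tested, 27.9% were called.

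Calls were read against how far they depended on single libraries. RAD52, BRIP1, BRCA1, FANCA and MUS81 were called in the fit on all libraries and in each of the 6 fits that left out 1 library. The count of falls was 17 without β-alanine library 1 (18.3% of all genes fell in that fit), 4 without β-alanine library 2 (8.44%) and 5 without β-alanine library 3 (9.4%). It was 7, 5 and 6 without control libraries 1, 2 and 3 (10.2%, 8.49% and 10.9%). The count of rises was 3 without β-alanine library 1 (17.8% of all genes rose), 1 without β-alanine library 2 (8.6%) and 2 without β-alanine library 3 (9.46%). It was 2 without each of control libraries 1, 2 and 3 (10.5%, 8.96% and 10.4%). On all libraries, falls and rises numbered 12 and 3 with DESeq2's size factors (13.9% and 14.0% of all genes), with library totals alone (12.4% and 15.8%), without a filter on low counts (6.84% and 7.67%) and with at least 10 counts in every library (15.9% and 14.6%). They numbered 10 and 2 in the DESeq2 Wald test (10.9% and 10.7%) and 13 and 3 with limma-voom (14.6% and 14.5%).

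**Figure D2:**
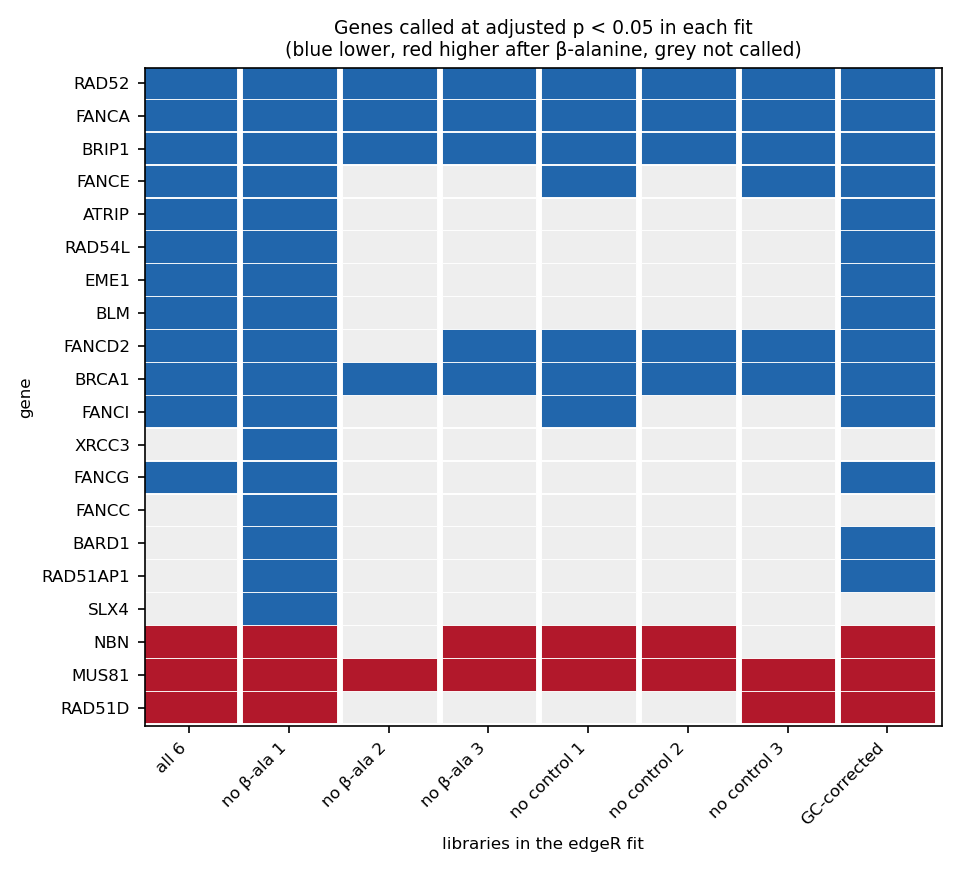
Genes called at an adjusted p under 0.05 (vertical axis) in the edgeR fit on all 6 libraries, in the 6 fits that leave out 1 library, and in the fit corrected for GC content (horizontal axis). Blue marks lower and red higher after β-alanine, and grey marks no call. The rows of RAD52, FANCA, BRIP1, BRCA1 and MUS81 are filled throughout, and XRCC3, FANCC and SLX4 are filled only without β-alanine library 1.

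The promoters of the genes that fell were read because many recombination genes are known targets of E2F, the factor that drives the entry into S phase. RefSeq gave a start site for 36 of the 40 genes, and FANCI, NBN, RAD54B and WRN were not matched. The 250 bases before each start were searched on both strands for the E2F word TTCCCGC and its variants (first TTCGCGC, then TTGCCGC, then TTGGCGC), for the cell cycle word TTTGAA with its variant TTCGAA, and for the box CCAAT. On the other strand that box reads ATTGG and may overlap TTGGCGC. An E2F word was present before 6 of the 11 matched genes that fell, before 3 of 23 that were not called and before 1 of 2 that rose. Those not called were RAD51AP1, FANCC and FANCL, and the gene that rose was RAD51D. Whether these shares differ was not tested, and the groups were not matched for GC content. Over the promoters of 11373 tested genes the share was 17.4%, over all 27305 promoters 11.0%, and over the matched members 27.8% (10 of 36). CCAAT was present before 5 of the 11 that fell and 10 of the 23 not called, against 35.0% of the promoters of tested genes. A cell cycle word was present before BRIP1 among the genes that fell and before FANCC, UBE2T and ATM among those not called, against 9.34% of those promoters. These are letter matches in a window and no measure of binding. The start is the 1 that RefSeq's table lists for the gene, and other starts were not searched. Among the matched genes that fell, it lies inside the outermost bounds of the gene only in RAD52. It does so too in several of the other members, such as MRE11 and RBBP8. In the other matched genes that fell, such as BRCA1, it is the outermost bound, which may not be the start used most. The 6 promoters of fallen genes with an E2F word, and that of BRIP1, which holds a cell cycle word and CCAAT 3 times, are shown 5′ to 3′ on the strand of the gene, in GRCh38.p14, with every matched word in capitals.
RAD52, chr12:949695-949944, minus strand: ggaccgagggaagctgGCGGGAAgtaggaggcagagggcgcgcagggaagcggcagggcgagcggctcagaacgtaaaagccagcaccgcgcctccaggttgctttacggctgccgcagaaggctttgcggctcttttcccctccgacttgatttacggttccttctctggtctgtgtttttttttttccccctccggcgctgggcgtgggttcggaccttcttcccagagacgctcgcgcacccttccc
FANCA, chr16:89816648-89816897, minus strand: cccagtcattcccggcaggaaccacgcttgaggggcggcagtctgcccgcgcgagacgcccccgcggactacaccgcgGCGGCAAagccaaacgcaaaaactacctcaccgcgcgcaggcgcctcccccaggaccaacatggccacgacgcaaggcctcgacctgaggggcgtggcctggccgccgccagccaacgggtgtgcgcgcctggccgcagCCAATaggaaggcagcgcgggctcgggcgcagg
BLM, chr15:90717096-90717345, plus strand: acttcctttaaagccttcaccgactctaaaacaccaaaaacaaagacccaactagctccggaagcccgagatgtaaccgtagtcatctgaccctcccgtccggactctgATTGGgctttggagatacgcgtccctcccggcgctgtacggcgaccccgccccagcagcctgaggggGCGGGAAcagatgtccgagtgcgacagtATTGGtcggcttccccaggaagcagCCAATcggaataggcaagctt
RAD54L, chr1:46247438-46247687, plus strand: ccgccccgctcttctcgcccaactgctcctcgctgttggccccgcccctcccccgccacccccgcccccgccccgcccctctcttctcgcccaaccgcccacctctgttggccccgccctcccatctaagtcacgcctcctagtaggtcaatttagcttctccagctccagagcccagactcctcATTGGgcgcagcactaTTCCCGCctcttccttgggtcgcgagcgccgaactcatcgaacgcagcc
FANCG, chr9:35079943-35080192, minus strand: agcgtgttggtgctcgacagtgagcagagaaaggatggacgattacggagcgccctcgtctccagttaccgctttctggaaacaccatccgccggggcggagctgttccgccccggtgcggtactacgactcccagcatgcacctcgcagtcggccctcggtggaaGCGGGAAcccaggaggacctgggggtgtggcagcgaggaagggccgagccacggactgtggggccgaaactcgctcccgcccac
EME1, chr17:50372979-50373228, plus strand: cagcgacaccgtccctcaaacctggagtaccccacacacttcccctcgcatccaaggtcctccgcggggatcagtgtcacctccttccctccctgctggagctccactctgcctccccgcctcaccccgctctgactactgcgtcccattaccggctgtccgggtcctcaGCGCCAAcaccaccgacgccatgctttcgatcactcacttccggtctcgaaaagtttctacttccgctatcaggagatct
BRIP1, chr17:61863529-61863778, minus strand: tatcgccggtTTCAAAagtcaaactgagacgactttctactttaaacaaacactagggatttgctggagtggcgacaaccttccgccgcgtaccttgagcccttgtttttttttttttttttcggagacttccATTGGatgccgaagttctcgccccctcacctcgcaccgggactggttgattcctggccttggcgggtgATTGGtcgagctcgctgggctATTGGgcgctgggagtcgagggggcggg
Reading toward the start site, the first base of the E2F word stood at position -49 in RAD54L, -74 in BLM, -80 in EME1, -84 in FANCG, -172 in FANCA and -234 in RAD52, counted back from the start.

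Among the 13 genes of strand exchange, 3 fell and 1 rose, where 13.8% of all genes tested fell and 14.1% rose. RAD52, which anneals single strands and serves a recombination route apart from BRCA2, had 12.3, 12.4 and 12.1 CPM in β-alanine libraries 1, 2 and 3 and 18.3, 18.5 and 19.0 CPM in control libraries 1, 2 and 3. The 3 treated libraries had an SD of 0.169 CPM and stood well below the controls, with no overlap. The log2 fold change was -0.60 ± 0.08 (SE), with an adjusted p of 1.11e-05 by edgeR (quasi-likelihood, Benjamini-Hochberg), and it ranked 326 of the 2389 genes that fell, counted from the lowest log2 fold change. RAD52 lies on chromosome 12 from 911736 to 991122 on the minus strand (RefSeq, GRCh38.p14, as for the other positions), and shares 5.6% of its annotated exonic bases with another gene.

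BRCA1, which with BARD1 forms a ubiquitin ligase that brings PALB2 and BRCA2 to breaks, had 72.1, 65.7 and 64.7 CPM after β-alanine and 77.7, 80.6 and 76.5 CPM in controls. Library 1 was the highest treated library, and the groups did not overlap. The change was -0.22 ± 0.05 (SE, adjusted p = 0.00216 in edgeR with Benjamini-Hochberg adjustment). BRCA1 lies on chromosome 17 from 43044295 to 43170327 on the minus strand. Its partners did not pass the test: BARD1 changed by -0.15 (95% interval -0.29 to -0.019), PALB2 by -0.051 (-0.21 to 0.11) and BRCA2, which acts with PALB2 at the trimmed strand, by -0.095 (-0.22 to 0.028).

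RAD54L, a motor protein that acts when the strand invades the intact helix, had 48.7, 36.8 and 38.2 CPM after β-alanine and 46.0, 49.3 and 50.3 CPM in controls. Library 1 lay within the control range and libraries 2 and 3 below it. The change was -0.26 ± 0.09 (SE, adjusted p = 0.042 in edgeR with Benjamini-Hochberg adjustment), and the adjusted p was 0.0624 to 0.155 with either of β-alanine libraries 2 and 3 or any control left out. RAD54L shares 25.1% of its exonic bases with LRRC41 on the opposite strand, which changed by 0.078 (95% interval -0.013 to 0.17). Its relative RAD54B changed by 0.17 (-0.05 to 0.39) and was not called, although its treated libraries, at 8.93 to 10.1 CPM, were above the controls at 7.3 to 8.82 CPM. RAD54B shares 59.1% of its exonic bases with FSBP, so its count is uncertain.

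RAD51D rose. With RAD51B, RAD51C, XRCC2 and XRCC3 it belongs to a family of related proteins that assist strand exchange. It had 27.6, 28.0 and 26.6 CPM after β-alanine and 22.6, 23.1 and 25.7 CPM in controls, close at control library 3 but without overlap. The change was 0.20 ± 0.07 (SE, adjusted p = 0.0336 in edgeR with Benjamini-Hochberg adjustment). It was not called when any of β-alanine libraries 2 and 3 and control libraries 1 and 2 was left out (adjusted p = 0.0545 to 0.141 in edgeR), nor in the DESeq2 Wald test (adjusted p = 0.0701).

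The other 4 genes of that family did not pass. RAD51C changed by 0.008 (95% interval -0.097 to 0.11), the narrowest interval of the 4, XRCC2 by 0.11 (-0.006 to 0.24) and RAD51B by 0.13 (-0.16 to 0.43). XRCC3 changed by -0.21 (-0.42 to 0.009), with 46.4 CPM in β-alanine library 1 and 36.1 in each of libraries 2 and 3, against 41.0 to 49.2 CPM in controls. It was called lower once β-alanine library 1 was left out (adjusted p = 3.59e-05 in edgeR) and without a filter on low counts (0.00949). XRCC3 shares 76.7% of its exonic bases with KLC1 on the opposite strand, and so cannot be told from it where reads carry no strand. RAD51AP1, which promotes strand pairing, changed by -0.13 (-0.24 to -0.017), with no overlap between groups (44.8 to 48.1 against 48.4 to 51.4 CPM) and an adjusted p of 0.0792 in edgeR with Benjamini-Hochberg adjustment.

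Of the 8 genes for trimming ends and unwinding, 2 fell and 1 rose, where 13.8% of all genes tested fell and 14.1% rose. BRIP1, a helicase bound to BRCA1 and also known as FANCJ, had 31.5, 29 and 28.0 CPM after β-alanine and 36.2, 35.3 and 38.1 CPM in controls. Every treated library was below every control. The change was -0.32 ± 0.06 (SE, adjusted p = 0.000699 in edgeR with Benjamini-Hochberg adjustment). BRIP1 lies on chromosome 17 from 61679139 to 61863528 on the minus strand, and no other annotated gene shares its exonic bases. BLM, the helicase lost in Bloom syndrome, which dissolves crossed strands, had 42.3, 34.6 and 33.4 CPM after β-alanine and 43.3, 42.1 and 42.6 CPM in controls. Library 1 was at the control level. The change was -0.24 ± 0.07 (SE, adjusted p = 0.017 in edgeR with Benjamini-Hochberg adjustment), and the adjusted p was 0.0529 to 0.117 with either of β-alanine libraries 2 and 3 or any control left out.

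The MRE11, RAD50 and NBN proteins form the complex that first binds a broken end. NBN had 104, 122 and 115 CPM after β-alanine and 101, 102 and 98.8 CPM in controls, a change of 0.18 ± 0.05 (SE, adjusted p = 0.00917 in edgeR with Benjamini-Hochberg adjustment). β-alanine library 1 was only just above the highest control. Leaving out β-alanine library 2 ended the call (adjusted p = 0.107 in edgeR), as did leaving out control library 3 (0.052). MRE11 changed by -0.022 (95% interval -0.13 to 0.084) and RAD50 by -0.10 (-0.33 to 0.12), neither called. RAD50 shares 79.7% of its exonic bases with another annotated protein-coding gene on the same strand, and so its count, at 9.61 to 13.3 CPM, is uncertain.

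RBBP8, which starts the trimming and is also known as CtIP, changed by 0.034 (-0.093 to 0.16), and WRN, the helicase lost in Werner syndrome, by 0.072 (-0.047 to 0.19). EXO1, the nuclease that extends the trimming, changed by -0.11 (-0.23 to 0.009). Its treated libraries were close together, at 33.6 to 34.3 CPM, below the controls at 36.0 to 38.1 CPM, but it was not called (adjusted p = 0.163 in edgeR with Benjamini-Hochberg adjustment).

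The Fanconi core complex with its ubiquitin-conjugating enzyme UBE2T counted 9 genes, of which 3 fell and none rose (13.8% and 14.1% of all genes tested). At an unadjusted p under 0.05 in edgeR 4 were lower, FANCC being the other, and 0 higher, where 19.0% of all genes tested were lower and 19.4% higher at that threshold. DESeq2 and limma-voom also called 0 higher. FANCA, the gene most often mutated in Fanconi anaemia, had 53.5, 42.3 and 45.3 CPM after β-alanine and 57.7, 55.9 and 62.1 CPM in controls. Library 1 was nearest to the controls and still below them. The change was -0.33 ± 0.07 (SE, adjusted p = 0.00217 in edgeR with Benjamini-Hochberg adjustment). FANCA lies on chromosome 16 from 89737549 to 89816647 on the minus strand and shares 23.6% of its exonic bases with ZNF276 on the opposite strand, which changed by -0.062 (95% interval -0.22 to 0.10).

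FANCE, which links the core to FANCD2, had 25.0, 19.4 and 20.2 CPM after β-alanine and 26.2, 27.2 and 24.7 CPM in controls, a change of -0.30 ± 0.08 (SE, adjusted p = 0.0098 in edgeR with Benjamini-Hochberg adjustment). Leaving out either of β-alanine libraries 2 and 3, or the second control, ended the call (adjusted p = 0.0552 to 0.0894 in edgeR). FANCG, a scaffold that binds FANCA, had 54.2, 46.0 and 45.7 CPM after β-alanine and 54.4, 54.5 and 56.0 CPM in controls. Library 1 almost touched the controls. The change was -0.19 ± 0.06 (SE, adjusted p = 0.0199 in edgeR with Benjamini-Hochberg adjustment), and the call held with β-alanine library 1 left out but with no other library left out (adjusted p = 0.0529 to 0.13 in edgeR).

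The catalytic pair showed no call. FANCL, the ubiquitin ligase of the core, changed by 0.065 (95% interval -0.041 to 0.17) and UBE2T by -0.058 (-0.19 to 0.074). Both were among the most abundant of the 40 transcripts per length, as given below. FANCB changed by -0.18 (-0.44 to 0.077), FANCC by -0.18 (-0.34 to -0.02), FANCF by 0.027 (-0.20 to 0.26) and FANCM, the translocase that anchors the core to DNA, by 0.13 (-0.033 to 0.30). FANCC was called lower by limma-voom (adjusted p = 0.0462) and, in edgeR, with β-alanine library 1 left out (0.00105). FANCF and FANCB had at most 8.37 CPM in any library, and their intervals were the widest of the core.

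FANCD2 and FANCI, the pair that the core complex marks with ubiquitin, both fell, where 13.8% of all genes tested fell. FANCD2 had 65.0, 54.2 and 55.2 CPM after β-alanine and 67.5, 66.6 and 67.5 CPM in controls, a change of -0.22 ± 0.06 (SE, adjusted p = 0.00652 in edgeR with Benjamini-Hochberg adjustment). FANCI had 160.9, 131.7 and 137.7 CPM after β-alanine and 162.5, 164.6 and 168.1 CPM in controls, a change of -0.21 ± 0.06 (adjusted p = 0.0137 in edgeR). In both genes the controls were tight, library 1 was just under them and libraries 2 and 3 were clearly lower. Leaving out β-alanine library 2 ended the call for FANCD2 (adjusted p = 0.0674 in edgeR). Leaving out either of β-alanine libraries 2 and 3 or of control libraries 2 and 3 ended that for FANCI (0.0557 to 0.0702). FANCD2 lies on chromosome 3 from 10026437 to 10101932 and FANCI on chromosome 15 from 89243979 to 89317259, both on the plus strand. FANCI shares 5.9% of its exonic bases with POLG on the opposite strand, which changed by -0.002 (95% interval -0.10 to 0.095). FANCD2 has a pseudogene copy in the annotation, so some of its reads may be lost or shared.

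**Figure D3:**
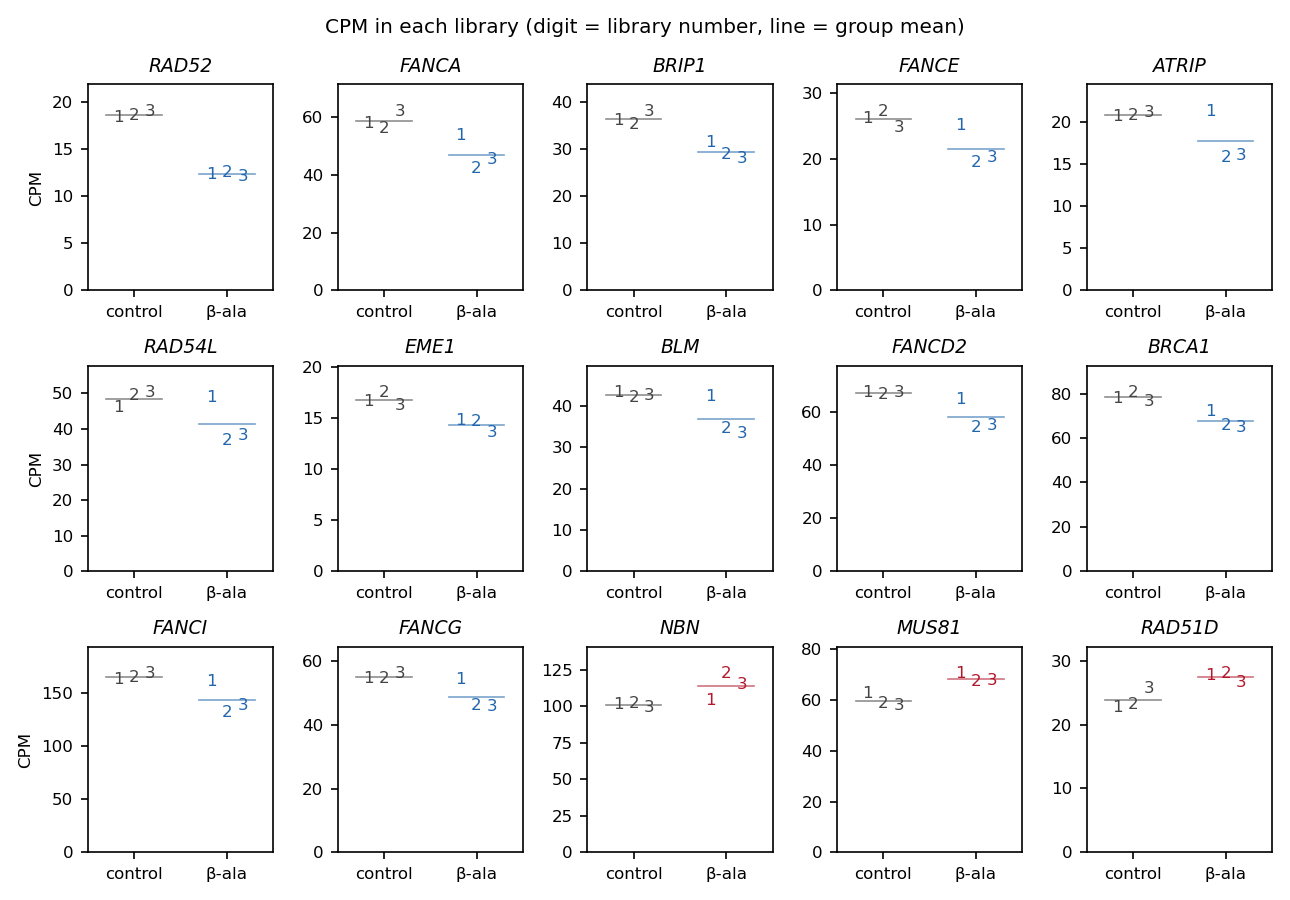
CPM (vertical axis, from 0) in controls and after β-alanine for the 15 genes called, each digit being the library of that number and each line the mean of its group. The 3 treated libraries coincide in RAD52 at 12.1 to 12.4 CPM, whereas in ATRIP library 1 is at 21.3 CPM, above all 3 controls, and libraries 2 and 3 are at 15.9 and 16.0 CPM.

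Of the 5 checkpoint genes, 1 fell and none rose, where 13.8% of all genes tested fell and 14.1% rose. At an unadjusted p under 0.05 in edgeR 0 were higher (19.4% of all genes tested), and 0 by DESeq2 or limma-voom. ATRIP, which brings the kinase ATR to single-stranded DNA, had 21.3, 15.9 and 16.0 CPM after β-alanine and 20.7, 20.8 and 21.2 CPM in controls. Library 1 lay above every control and the other treated libraries below every control. The change was -0.27 ± 0.09 (SE, adjusted p = 0.0339 in edgeR with Benjamini-Hochberg adjustment). It was called without β-alanine library 1 but not without any other library (adjusted p = 0.0839 to 0.197 in edgeR), nor in the DESeq2 Wald test (adjusted p = 0.0627). ATRIP shares 27.9% of its exonic bases with TREX1, which was not analysed here.

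The kinases were not called. ATR changed by 0.095 (95% interval -0.01 to 0.20), and its treated libraries, at 54.5 to 58.3 CPM, were just above the controls at 52.3 to 54.2 CPM. ATM, which answers to double-strand breaks, changed by -0.045 (-0.14 to 0.049). CHEK1 and CHEK2, the kinases downstream of ATR and ATM, changed by 0.12 (-0.002 to 0.25) and -0.039 (-0.18 to 0.11). CHEK2 has several pseudogene copies in the annotation, so its count is uncertain. It also shares 6.7% of its exonic bases with HSCB on the opposite strand, which changed by 0.32 (95% interval 0.10 to 0.54). RAD51AP1, MRE11 and RBBP8 have a pseudogene copy in the annotation as well.

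The 3 genes for cutting joined strands split. MUS81, the nuclease that resolves recombination intermediates and stalled forks, had 70.5, 67.2 and 67.8 CPM after β-alanine and 62.5, 58.5 and 57.7 CPM in controls. All treated libraries were above all controls, library 1 highest among them. The change was 0.20 ± 0.05 (SE, adjusted p = 0.00448 in edgeR with Benjamini-Hochberg adjustment). MUS81 lies on chromosome 11 from 65859674 to 65867653 on the plus strand. It shares 13.9% of its exonic bases with CFL1 on the opposite strand, a far more abundant gene at 547 to 590 CPM, which changed by 0.007 (95% interval -0.073 to 0.086).

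EME1, the subunit that MUS81 needs for cutting, fell while MUS81 rose. It had 14.8, 14.7 and 13.6 CPM after β-alanine and 16.7, 17.6 and 16.3 CPM in controls, with no overlap, a change of -0.24 ± 0.08 (SE, adjusted p = 0.0334 in edgeR with Benjamini-Hochberg adjustment). The call was lost in edgeR with either of β-alanine libraries 2 and 3 or any control left out (adjusted p = 0.0515 to 0.158), with no filter on low counts (0.062), and in the DESeq2 Wald test (0.0774). EME1 shares 16.4% of its exonic bases with LRRC59 on the opposite strand, which changed by -0.073 (95% interval -0.15 to 0.007). SLX4, the scaffold that gathers these nucleases, changed by -0.067 (-0.22 to 0.088), with 44.7 CPM in β-alanine library 1, above every control, and 35.2 and 37.8 in libraries 2 and 3.

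The genes that fell differed in how they stood in β-alanine library 1. In RAD52 the log2 differences from the control mean were -0.59, -0.58 and -0.62 in libraries 1, 2 and 3. In BRIP1 they were -0.21, -0.33 and -0.38, and in EME1 -0.18, -0.20 and -0.30. BRCA1 had -0.12, -0.25 and -0.27, and FANCA -0.13, -0.47 and -0.37. In the other 7, library 1 lay between -0.057 and 0.027 and libraries 2 and 3 between -0.26 and -0.42. Over the 12 genes the medians were -0.053, -0.33 and -0.35. Over all 40 they were 0.022, -0.12 and -0.097, while the medians over all genes tested were all within 0.005 of 0. Library 1 was above the mean of libraries 2 and 3 in each of the 12 genes that fell and in 33 of the 40.

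**Figure D4:**
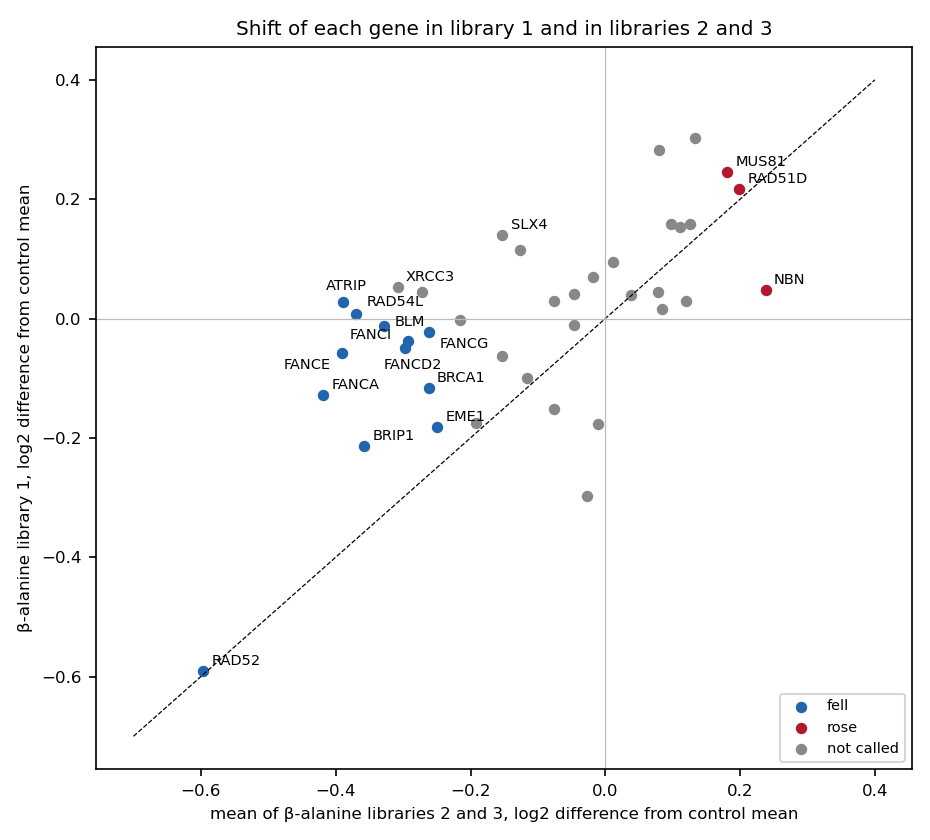
Log2 difference from the control mean in β-alanine library 1 (vertical axis) and in the mean of β-alanine libraries 2 and 3 (horizontal axis) for each of the 40 genes, coloured by call. On the dashed line both are equal. RAD52 sits close to it at -0.59 in library 1, and ATRIP, RAD54L, BLM, FANCE, FANCD2, FANCI and FANCG lie between -0.057 and 0.027 on the vertical axis and to the left of 0 on the horizontal axis.

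GC content moved with this difference. Over the 40 genes, the GC content of the longest annotated transcript and the excess of library 1 over libraries 2 and 3 had a Pearson r of 0.559 (n = 40 genes, which share the same libraries). Over 12226 tested genes with an average log2 CPM above 2, the same r was 0.172. The 10 genes with at least 50% GC had medians of 0.017, -0.30 and -0.31 in libraries 1, 2 and 3, and 6 of them fell and 1 rose. Of the 5552 tested genes of that GC class, with the same limit on the average log2 CPM, 20.5% fell and 14.3% rose, and the medians were -0.005, -0.047 and -0.027. The 30 genes under 50% GC had medians of 0.022, -0.05 and -0.027, and 6 fell and 2 rose. Of the 6674 tested genes of that class 14.7% fell and 20.8% rose, with medians of 0.013, 0.032 and 0.021. Whether the members differ from other genes of their GC class was not tested. With a GC correction of each library, an alternative chosen after seeing the data, all 15 calls were made again in edgeR, and BARD1 and RAD51AP1 were called lower besides, giving 14 falls (13.9% of all genes fell in that fit) and 3 rises (14.5%).

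Genes known to peak in S phase or G2 made up 18 of the 40. Of these 8 fell and none rose, a share of 44.4% falling, where 13.8% of all genes tested fell and 14.1% rose. At an unadjusted p under 0.05 in edgeR 10 were lower, with BARD1 and RAD51AP1, and 0 higher (19.0% and 19.4% of all genes tested). DESeq2 and limma-voom called 7 and 8 lower and 0 higher. The 10 periodic genes not called included BRCA2, CHEK1, XRCC2, RAD54B and UBE2T, and CHEK1, XRCC2, RAD54B and RBBP8 had positive estimates. Among the other 22 genes, 4 fell (RAD52, FANCE, FANCG and ATRIP) and the 3 rises occurred. The difference between these subsets was not tested. Per library, the periodic genes had medians of -0.043, -0.21 and -0.17 and the others 0.04, -0.04 and -0.005 in β-alanine libraries 1, 2 and 3.

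A list of 38 replication genes had 23 falls and no rise (at an unadjusted p under 0.05 in edgeR 30 lower and 0 higher, against 19.0% and 19.4% of all genes tested, and 0 higher by DESeq2 or limma-voom), with medians of -0.036, -0.30 and -0.28 in the same libraries. Its called genes with the smallest p were MCM5, a subunit of the replicative helicase, which changed by -0.44, LIG1, which seals new strands, by -0.51 and POLE2, of a replicative polymerase, by -0.46. A list of 30 mitotic genes had 10 falls and 1 rise, with medians of -0.029, -0.22 and -0.18. At an adjusted p under 0.05 in edgeR, the threshold for both lists, 13.8% of all genes tested fell and 14.1% rose. There PLK1, a mitotic kinase, changed by -0.32, the proliferation marker MKI67 by -0.22 and the kinesin KIF20A by 0.20. The part of these shifts in the results for the recombination genes was not tested.

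Other genes of the pathway or linked to it, outside the 40, were counted from a list of 50, of which 48 were tested. In it 16 fell (33.3%) and 8 rose (16.7%), where 13.8% of all genes tested fell and 14.1% rose. The median log2 fold change of the list was -0.057. POLQ, the polymerase of an end-joining route that competes with recombination, had 11.4, 12.3 and 11.6 CPM after β-alanine and 23.7, 26.1 and 23.1 CPM in controls. All treated libraries were far below all controls, a change of -1.05 ± 0.08 (SE, adjusted p = 1.33e-08 in edgeR with Benjamini-Hochberg adjustment). FAN1, a nuclease recruited by FANCD2, fell by 0.68 ± 0.06 on the log2 scale, with 30.9 to 34.6 CPM against 49.4 to 53.6 CPM. RMI2, which with BLM dissolves crossed strands, fell by 0.68 ± 0.09, and NABP2, a single-strand binding protein, rose by 0.35 ± 0.05. These 4 calls were made in each fit that left out 1 library. FAN1 shares 24.3% of its exonic bases with MTMR10 on the opposite strand, so its count is uncertain. In RMI2, library 1 was at 13.5 CPM and libraries 2 and 3 at 11.0 and 11.1 CPM, against 17.3 to 20.2 CPM in controls.

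Among 28 further genes of checkpoint and break signalling, 9 fell and 3 rose, where 13.8% of all genes tested fell and 14.1% rose. WEE1, the kinase that holds back mitosis, fell by 0.42 ± 0.07 on the log2 scale, RAD1, of the clamp that activates ATR, by 0.34 ± 0.06 and MDC1, which binds marked chromatin at breaks, by 0.24 ± 0.05. H2AX, the histone variant marked at breaks, rose by 0.35 ± 0.07. Of the 12 tested genes of non-homologous end joining, the route that rejoins ends without a template, 2 rose and none fell. At an unadjusted p under 0.05 in edgeR 6 were higher and 1 lower, against 19.4% and 19.0% of all genes tested. DESeq2 and limma-voom called 2 and 3 higher and 0 lower. LIG4, its ligase, had 18.1, 22.7 and 23.5 CPM after β-alanine and 12.4, 13.4 and 14.02 CPM in controls, a change of 0.71 ± 0.09 (SE, adjusted p = 8.62e-06 in edgeR with Benjamini-Hochberg adjustment). DCLRE1C, the nuclease Artemis, rose by 0.19 ± 0.06, a call that ended when any of β-alanine libraries 2 and 3 and control libraries 2 and 3 was left out (adjusted p = 0.0615 to 0.159 in edgeR). POLQ, which fell, was counted above with the other genes of the pathway and not in the end-joining list. Whether the end-joining and recombination lists differ was not tested.

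Levels per length were compared as CPM per kilobase of annotated exons in controls. UBE2T (26.5), FANCL (22.2), FANCI (21.3), RAD51AP1 (19.6) and NBN (16.3) led, and RAD51B (0.535), RAD50 (1.22), RAD54B (1.54) and FANCB (1.67) came last. Falls and rises were spread along this order, from FANCI near the top to ATRIP and RAD51D near the bottom. MUS81 stood at 10.9 and its subunit EME1 at 5.11 in controls, and they stood at 12.5 and 4.36 after β-alanine. RAD50 and RAD54B share 79.7% and 59.1% of their exonic bases with another gene, so their low places are uncertain. That of RAD51D rests on a length of 11304 annotated exonic bases. The exon lengths come from GENCODE and may differ from those used for counting.

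**Figure D5:**
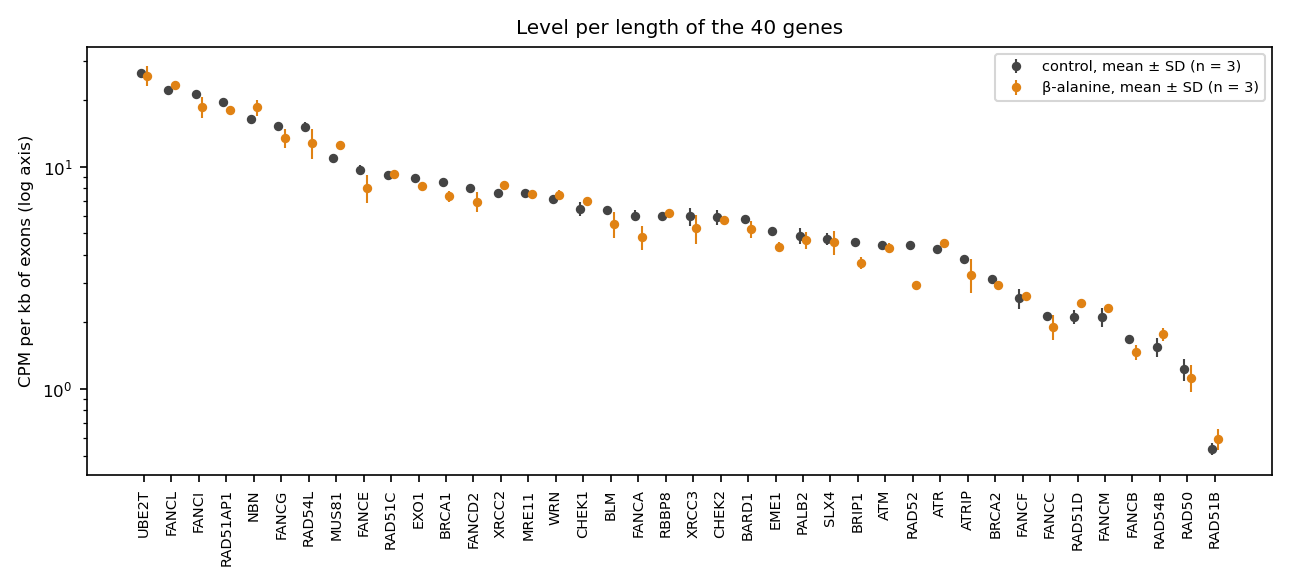
Mean CPM per kilobase of annotated exons (vertical log axis) with SD over 3 libraries in controls and after β-alanine, for the 40 genes in order of their control level. UBE2T is highest at 26.5 and RAD51B lowest at 0.535 in controls. Of the genes that fell, RAD52 (4.44 against 2.93) has the widest gap between groups on this log axis, where gaps are ratios.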

How the data were processed

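Polyadenylated RNA of DMS114 cells was measured in 3 β-alanine and 3 control libraries. The deposited values are raw counts for each symbol. The submitters' processing notes name Trimmomatic 0.39, STAR 2.7.3a and featureCounts 2.0.1, besides bcl2fastq and DESeq2, and the build GRCh38. Whether strand was used, and which gene models, is not given in the sources used, so overlapping genes cannot be told apart. Groups came from the sample titles.

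Genes were filtered with filterByExpr and scaled by TMM. The two-sided quasi-likelihood test of edgeR 4.0.16 (robust, R 4.3.3), without covariates, was run on all 17331 genes, with p-values adjusted by Benjamini-Hochberg and called under 0.05. SE is the log2 fold change over the root of F. Intervals are 95%. The fit was tested on simulated data. It recovered 34% of 1.15-fold, 60% of 1.25-fold, 82% of 1.5-fold and 98% of 2-fold changes. That simulation had 146 calls in 17133 genes, far fewer than here, so recovery in these data may differ.

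The members and lists were chosen with earlier results of these data known. All members are accounted for. Of each other list, the 4 called genes with the smallest p were named, or 3 for replication and mitosis. Some genes that this rule or the marker lists hold are not reported here. Positions and promoters are from RefSeq on GRCh38.p14, and exon lengths, overlaps and GC content from GENCODE. Alternatives were other scaling, filters, DESeq2 1.42.0, limma-voom 3.58.1, a replicate block, leaving out each library and, added after seeing the data, a GC correction.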

Additional observations from a re-analysis of the deposited data

How the results depend on the processing

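Counts of calls over the 40 genes were steady under other scaling and filters, and moved when libraries were left out. Without 1 library at a time, the count ranged from 4 to 17 for falls, 1 to 3 for rises, 3 to 10 for falls of periodic genes, 1 to 7 for falls of the other members, 3 to 11 for rises and 13 to 20 for falls of the other pathway genes, and 2974 to 6498 for all genes called. Over all genes tested, the share that fell ranged from 8.44% to 18.3% in these fits. The share that rose ranged from 8.6% to 17.8%. The median log2 fold change of the 40 genes lay between -0.108 and -0.062 throughout.

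The sign turned only in genes that were not called. With 1 library left out, CHEK2 ranged from -0.095 to 0.017, FANCF from -0.038 to 0.112, MRE11 from -0.05 to 0.012, PALB2 from -0.13 to 0.012, SLX4 from -0.156 to 0.006 and RAD51C from -0.021 to 0.034. RAD51C was at -0.014 with the GC correction and at -0.012 with that correction and the replicate block.

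Deviations from the group mean correlated only weakly between libraries with the same number (r = 0.0496, 0.00365 and 0.0716 for numbers 1, 2 and 3). Between libraries with different numbers, r was -0.0718 to 0.00796. β-alanine libraries 1 and 3 correlated best with the control of the same number, and β-alanine library 2 with control library 1. Correlations this weak cannot settle whether the numbers pair the samples. With the replicate block the falls and rises were again 12 and 3 (15.0% and 14.8% of all genes), and 5172 genes were called.

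Depth and 3 libraries a group limit what small shifts could be seen: the interval of a gene that was not called reached as far as -0.44 or 0.43 on the log2 scale, in the least abundant genes. That of the more abundant XRCC3 reached -0.425, with β-alanine library 1 at 46.4 CPM and libraries 2 and 3 at 36.1 CPM each.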
